A study of Mikania micrantha with 15 samples.

Results

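Mikania micrantha is a climbing plant of the Asteraceae known for rapid growth. Its root and shoot apex were compared gene by gene with RNA sequencing. The comparison used 6 of the 15 libraries of the series, 3 from root and 3 from shoot apex, and all 41487 gene IDs of the count table were considered in both directions. Of these, 32565 IDs had at least 1 read in the 6 libraries and 27055 had enough reads over the series to be tested. All plants were wild type. Stem cuttings formed roots of 4 to 5 cm in water before their transfer to Hoagland solution, which supplies mineral nutrients. Growth there lasted 60 days, at 24 °C, with lights on for 16 h and off for 8 h a day. Roots therefore grew in liquid, not in soil. The other 9 libraries, 3 each of stem, leaf and flower from plants grown in the same way, served here to place the genes that differed. Whether replicates came from separate plants is not stated, so p-values reflect only how much these libraries vary, and that variation may be technical.

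The root anchors the plant, takes up water and mineral ions and sends them upward through the xylem. The shoot apex is the growing tip, where the shoot apical meristem, a small dome of dividing cells, produces new leaves, buds and stem tissue. The organs thus differ in cell division, in contact with light and in transport, and they sit at opposite ends of the plant axis. The count table gives locus tags without gene names or products, so the defining markers of a root or a shoot meristem could not be read out to check the labels, and no gene is given a function here. Genes are described as groups, by level, by size of difference and by their levels in the other organs, and 4 IDs are shown in full. In tissue samples a lower level cannot be told apart from a smaller number of the cells that express the gene.

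The shoot apex libraries were deeper and more alike than the root libraries. Totals were 11023970 to 12817396 counts in shoot apex and 3777165 to 10015399 in root, and root replicate 1 held 10015399. The biological coefficient of variation, which is the spread between replicates beyond counting noise, was 14% in shoot apex and 36.2% in root. Root replicate 1 stood apart from the other root libraries. The chi-square per gene between libraries, which also grows with depth, was 48.1 and 36.8 for its pairs with root replicates 2 and 3. It was 5.25 between root replicates 2 and 3, and 2.07 to 8.94 between shoot apex libraries. For 79.3% of the genes tested the 3 libraries were farther apart in root than in shoot apex, with a median range of 0.62 against 0.23 on the log2(CPM + 1) scale. CPM are counts scaled to a common library total, here after correction by trimmed means (TMM), and they are not corrected for gene length.

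A majority of the genes tested differed between the organs, and more of them were higher in the shoot apex. By edgeR's quasi-likelihood test, 14528 of 27055 genes (53.7%) were called, which means an adjusted p under 0.05 and a difference of at least 2-fold. Root was higher in 6252 genes (23.1%) and shoot apex in 8276 (30.6%). Below the 2-fold limit, a further 3391 genes had an adjusted p under 0.05, which makes 17919 genes (66.2%) at any fold. Root held 43% of the calls with TMM scaling, but 30.4% with plain library totals, 46.9% with RLE factors and 47.8% when the 6 libraries were fitted alone. Against TMM these settings shifted the median of all log2 fold changes by -0.44, 0.12 and 0.15. The fit to the 6 libraries also tested fewer genes, 24600, with its own estimate of the spread. Shoot apex was the organ with more calls under each of these settings, while the size of its excess varied with them. The order turned among the 16986 IDs with at least 10 reads in each of the 6 libraries, which kept 4192 of the 6252 root-higher and 3802 of the 8276 shoot apex-higher genes. That limit is harder to reach in root, where libraries were shallower.

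The libraries of the organs lay apart in nearly every called gene. The genes were called on these same libraries, so this separation largely follows from the choice and is a description. All 3 root libraries were above all 3 shoot apex libraries in 5947 of the 6252 root-higher genes (95.1%), where such a separation was found for 31% of all genes tested. All 3 shoot apex libraries were above all 3 root libraries in 8226 of the 8276 shoot apex-higher genes (99.4%), against 41.6% of all genes tested. In either direction, 72.6% of the genes tested had no overlap between the organs. The overlap that remained among calls thus lay mostly on the root side, with 305 root-higher and 50 shoot apex-higher genes. Calls that were made again in each of the 6 fits that leave out 1 root or shoot apex library numbered 5185 in root (82.9%) and 6879 in shoot apex (83.1%).

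**Figure D1:**
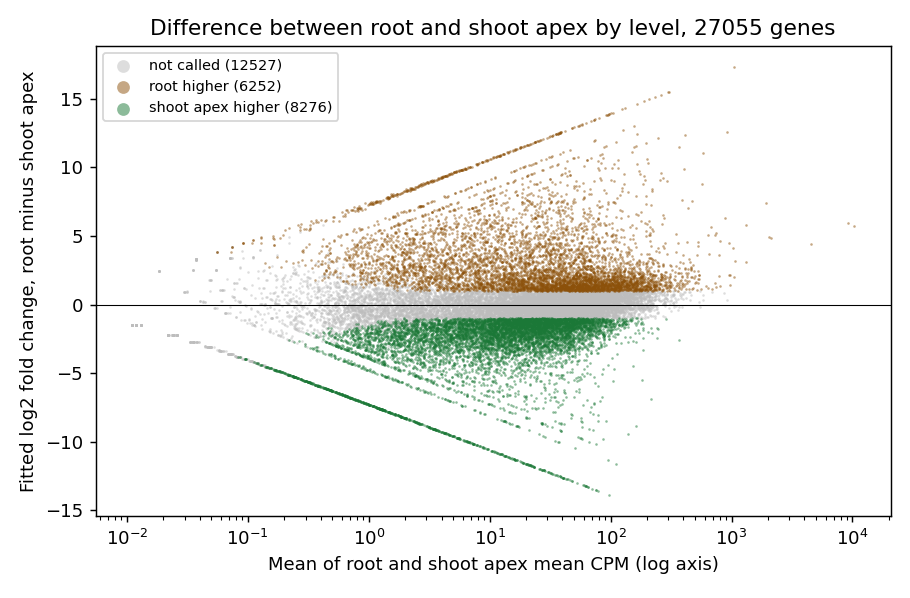
Each point is 1 of 27055 genes. The x axis is the mean of its root and shoot apex mean CPM (log axis) and the y axis is the fitted log2 fold change, root minus shoot apex. Brown and green points are the 6252 and 8276 called genes. The straight lines of points at the upper and lower edges are genes with few or no reads in one organ, whose fitted values are set by the prior count and are not measured folds.

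The direction of the difference changed with the level of the gene. Genes were placed by the mean of their root and shoot apex mean CPM. Among 7591 genes at 1 to 10 CPM, 40.1% were called higher in shoot apex and 22.9% in root. Among 14304 genes at 10 to 100 CPM the shares were 31% and 22.5%. Among 2301 genes at 100 to 1000 CPM the order turned, with 5.26% higher in shoot apex (121 genes) and 43.7% in root (1006 genes). All 12 genes at 1000 CPM and over were higher in root. The median log2 fold change over all genes of a band went from -0.66 at 1 to 10 CPM to 0.83 at 100 to 1000 CPM. Plain library totals gave 591 root-higher and 280 shoot apex-higher genes at 100 to 1000 CPM, a smaller gap in the same direction. Below 1 CPM, 281 and 672 genes were called, and this fell to 25 and 322 when the 6 libraries were fitted alone, a fit that tested fewer genes.

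The same contrast showed in the level that called genes had in their own organ. Root-higher genes reached at least 100 CPM in root in 1682 cases (26.9%), and shoot apex-higher genes reached it in shoot apex in 480 cases (5.8%). Over all genes tested, 2966 were at or above 100 CPM in root and 1821 in shoot apex. At least 1000 CPM was reached by 34 genes in root, 32 of them called root-higher, and by 0 in shoot apex.

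Counts were concentrated in fewer genes in root. The 100 most abundant IDs of a library took 9.77, 15.9 and 13.1% of the counts in root replicates 1, 2 and 3, and 4.1, 3.95 and 4.16% in those of shoot apex. The groups did not overlap, and the exact two-sided permutation test gave p = 0.1 (n = 3 per organ), the smallest value that 3 against 3 libraries can give. Between 1691 and 2230 IDs made up 50% of the counts in root, against 3562 to 3704 in shoot apex.
Breadth went the other way. After thinning of every library to 3777165 counts, 26561, 24720 and 25287 IDs had a read in root replicates 1, 2 and 3, and 27164, 27327 and 26998 in those of shoot apex. The mean of shoot apex was 1640.3 IDs higher (exact two-sided permutation p = 0.1, n = 3 per organ). Both p-values stayed at 0.1 after Benjamini-Hochberg adjustment over the pair of tests.

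Called genes accounted for most of the root transcriptome. Root-higher genes took 49.2 to 56.4% of the counts in the root libraries and 15.1 to 15.5% in those of shoot apex. Shoot apex-higher genes, although more numerous, held 30.9 to 31.6% in the shoot apex libraries and 4.96 to 6.64% in the root libraries. The sets were chosen on these 6 libraries, so the shares there are a description. The other 9 libraries entered the choice only through the filter, the scaling and the estimate of spread. There root-higher genes took 36.3 ± 4.39% of counts in stem (SD, n = 3), 24.5 ± 2.25% in flower and 23.2 ± 2.82% in leaf. Shoot apex-higher genes took 13.1 ± 1.44% in stem, 21.3 ± 1.65% in flower and 22.5 ± 2.35% in leaf. In these shares each stem library lay closer to root than any leaf or flower library did.

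**Figure D2:**
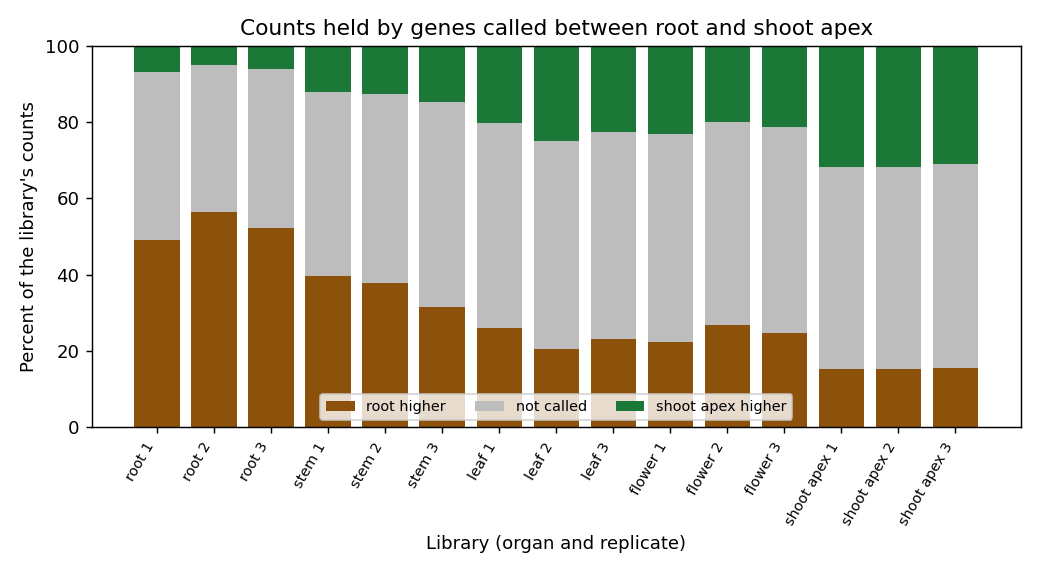
Stacked bars show the percent of each library's counts held by root-higher (brown), shoot apex-higher (green) and uncalled (grey) genes, for all 15 libraries. The brown part falls from 49.2 to 56.4% in root over 31.4 to 39.7% in stem to 15.1 to 15.5% in shoot apex. Leaf and flower libraries lie between 20.4 and 26.7%.

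Large differences were a greater part of the root-higher set. Fitted folds are no measure where an organ has hardly any reads, and 361 root-higher genes had no read in shoot apex while 747 shoot apex-higher genes had none in root. Ratios of mean CPM were therefore taken with the lower organ set to no less than 0.179 CPM in both directions. That is what 3 reads over the 3 root libraries amount to, and it is the larger of the limits of the pair (0.0717 CPM in shoot apex). On this scale 2371 root-higher and 2358 shoot apex-higher genes differed at least 8-fold, at least 64-fold 595 and 367, and at least 256-fold 186 and 104. As a share of each set, 9.52% of root-higher and 4.43% of shoot apex-higher genes reached 64-fold. The 64-fold shares were 11.1 and 4.42% with plain library totals and 9.13 and 4.58% with RLE factors. Without root replicate 1, with a limit of 0.388 CPM, 440 root-higher and 297 shoot apex-higher genes reached it.
By fitted fold, 2476 root-higher (9.15% of genes tested) and 2579 shoot apex-higher genes (9.53%) were called at 8-fold or more. In 1235 of the latter and 659 of the former the lower organ held 3 reads or fewer. The order of the organs at 8-fold therefore turned with the way the fold was measured. It also turned with the scaling of the ratios, with 2016 root-higher and 3198 shoot apex-higher genes by plain library totals and 2457 and 2176 by RLE factors. As a share of each set, 39.6% of root-higher and 31.2% of shoot apex-higher genes reached 8-fold by fit. Without root replicate 1 these were 2459 of 6155 and 3287 of 8501 genes, so the shares came closer together. By fitted fold, the excess of the root-higher set at 8-fold was thus smaller without that library. Leaving it out also leaves more shoot apex-higher genes with hardly any root reads, where fitted folds are no measure. The ratio with a common limit was not taken at 8-fold without it, so its part in that excess was not tested. The median fold was 5.13 in the root-higher and 4.65 in the shoot apex-higher set by fit. It was 5.09 and 4.43 with every call of 3 reads or fewer in the lower organ at its lower bound. For that bound each lower organ was set to its own limit, 0.0717 CPM in shoot apex and 0.179 CPM in root.

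Large ratios were a greater part of the root-higher set at each level of the higher organ. Of root-higher genes under 10 CPM in root, 47.8% had a ratio of at least 8 on the same scale, against 36.4% of shoot apex-higher genes under 10 CPM in shoot apex. Between 10 and 100 CPM the shares were 39.2 and 24.7%, and at 100 CPM and over 26.8 and 21.7%. These shares include root replicate 1 and describe the called genes, and the difference between the sets was not tested.

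**Figure D3:**
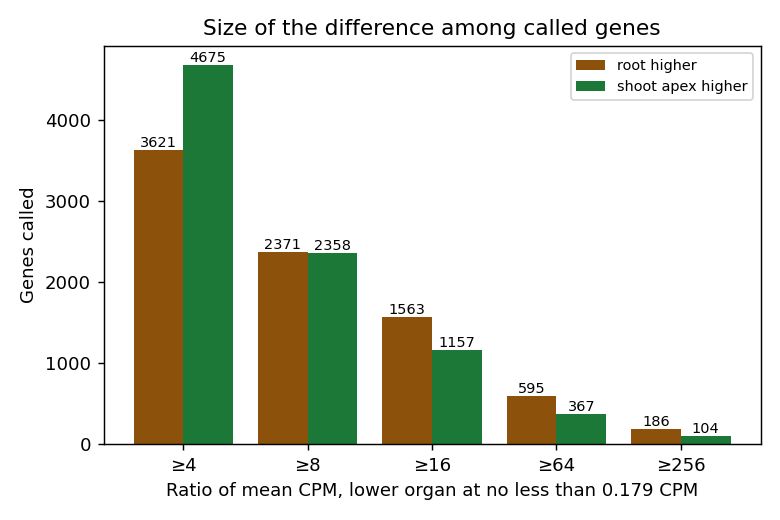
Bars give the number of called genes whose ratio of mean CPM between the organs reached 4, 8, 16, 64 or 256, with the lower organ at no less than 0.179 CPM. Green bars (shoot apex higher) exceed brown bars (root higher) at 4, with 4675 against 3621, and fall below them from 16 on, with 1157 against 1563. By plain library totals shoot apex was still ahead at 16, with 1545 against 1344, and root was ahead from 64 on.

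Some IDs were read in one organ and not in the other. A mean of at least 1 CPM (of plain library totals) in root with no read in any shoot apex library was found for 410 IDs, and the reverse for 615. No read means a level of up to 0.0717 CPM in shoot apex and 0.179 in root on the TMM scale, limits that cover counting error only. Shoot apex held 1.86 times as many reads as root over the 3 libraries, so absence is easier to meet in root. With every library thinned to the smallest total the numbers were 607 and 786.
Both groups reached high levels. Of the IDs read in root, 139 were at 10 CPM or more and 23 at 100 CPM or more, and of those read in shoot apex 198 and 20. The highest had a mean of 1811 CPM in root and 226 CPM in shoot apex. Of the 410 IDs, 316 were tested and all 316 were called. Of the 615, 578 were tested and 576 were called. In both cases the call follows from the way the IDs were picked.

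These groups were read elsewhere to different degrees. Among the 615 IDs of shoot apex without a root read, the mean was 1 CPM or more for 421 (68.5%) in flower, 328 (53.3%) in leaf and 221 (35.9%) in stem. Only 3 of them (0.488%) were without reads in all 9 remaining libraries. Of the 410 IDs read in root and not in shoot apex, 61 (14.9%) reached 1 CPM in flower, 53 (12.9%) in stem and 18 (4.39%) in leaf, and 85 (20.7%) had no read in the 9 libraries. In all, 485 of the 615 and 107 of the 410 reached 1 CPM in at least 1 of the other organs. Over all genes tested, on the TMM scale, the shares at 1 CPM or more were 91% in flower, 84% in leaf and 81.5% in stem. The 615 IDs thus had the organs in the order of all genes, at lower shares.

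Root replicate 1 held reads of shoot apex genes that the other root libraries lacked. Without it, 1222 IDs instead of 615 had reads in shoot apex and none in root. The 607 IDs that it removed had a median of 4 reads there, and 105 of them had 10 or more. It was the deepest root library, but the excess was also seen at equal totals. In thinned libraries, 523 IDs at 1 CPM or more in shoot apex were read in root replicate 1 and in neither of the others, against 128 in root replicate 2 and 172 in root replicate 3 by the same count. In the reverse direction, each shoot apex library was the only one with reads for 114 to 157 root genes. The source of these reads in root replicate 1 was not tested.

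Over the whole sets, the median level in stem was the nearest to root among the other organs. Root-higher genes had a median of 40.9 CPM in root, 16.4 in stem, 11.6 in flower, 10.7 in leaf and 5.21 in shoot apex. The medians of single libraries did not overlap between stem, at 14.8 to 16, and the others, at 8.89 to 11.3 in leaf and 10.9 to 12.3 in flower, while leaf and flower overlapped. Shoot apex-higher genes had a median of 19.7 CPM in shoot apex, 12 in flower, 10.7 in leaf, 6.58 in stem and 3.34 in root. Here too stem libraries, at 5.77 to 7.12, lay below those of leaf (8.75 to 12) and flower (10.7 to 13.3). Root-higher genes of at least 8-fold by fit had another order, with a median of 22.5 CPM in root, 2.26 in flower, 1.91 in stem and 1.34 in leaf, and of 0.414 CPM in shoot apex. There the flower libraries, at 2.01 to 2.35, lay above those of stem, at 1.55 to 1.74. Uncalled genes were at 19.1 to 21.8 CPM in all 5 organs.

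Contrasts among stem, leaf and flower use none of the root and shoot apex libraries, although they share the estimate of spread. Between stem and leaf, 1871 of the 6252 root-higher genes (29.9%) were called higher in stem and 715 (11.4%) higher in leaf, by the same edgeR test. Over all genes tested these shares were 15.6% and 19.9%. Of the 8276 shoot apex-higher genes, 859 (10.4%) were called higher in stem and 3078 (37.2%) higher in leaf. The median log2 fold change, stem minus leaf, was 0.56 in the root-higher set, -0.8 in the shoot apex-higher set and -0.11 over all genes tested. When stem, leaf and flower were fitted without any root or shoot apex library, the shares were 28.6 and 10.3% of root-higher and 9.82 and 35.7% of shoot apex-higher genes. More root-higher genes were higher in stem, and more shoot apex-higher genes in leaf, in each of the 20 alternative fits.

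Stem against flower gave a like picture and flower against leaf did not. Root-higher genes were called higher in stem in 30.9% and higher in flower in 15.1% of cases, where all genes tested gave 15.4% and 24.9%. Shoot apex-higher genes were called higher in stem in 8.26% and in flower in 39.6% of cases. Between flower and leaf, root-higher genes were higher in flower in 20.9% and in leaf in 17.4% of cases, and shoot apex-higher genes in 21.4% and 18.6%. All genes tested gave 20.2% and 15.7%, so these shares were near the background. Genes that differed at least 8-fold by fit kept the pattern on the shoot apex side, with 51.1% higher in flower and 9.85% in stem. On the root side they were more even, with 26.5% higher in stem and 23.2% in flower. Between flower and leaf the 8-fold sets were above the background. Of root-higher genes at 8-fold, 30.7% were higher in flower and 18.4% in leaf. For shoot apex-higher genes at 8-fold the shares were 33.8% and 21.3%.

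**Figure D4:**
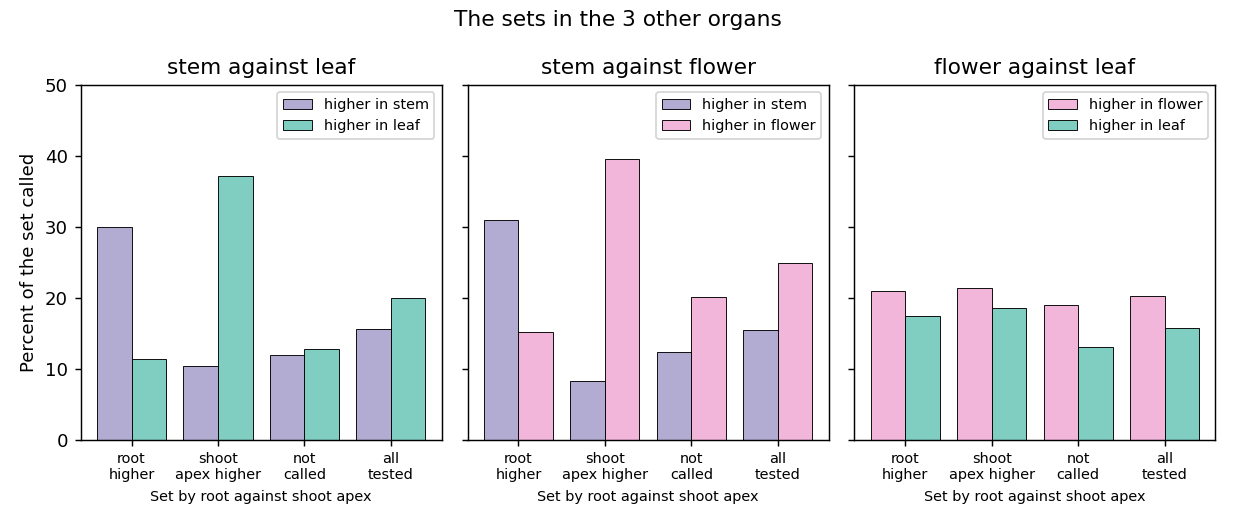
Bars give the percent of each set called higher in either organ of a pair, for the root-higher, shoot apex-higher, uncalled and all tested genes. In the pairs with stem, the root-higher set is called more often in stem (29.9 and 30.9%) and the shoot apex-higher set in leaf or flower (37.2 and 39.6%). Between flower and leaf the sets differ little.

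Root-higher genes included a group that was uneven among the root libraries. Root replicate 1 was at least 4-fold below both other root libraries, on the log2(CPM + 1) scale, in 145 root-higher genes, and at least 4-fold above both in 89. Root replicates 2 and 3 stood as far below the others in 2 and 1 root-higher genes, and as far above in 3 and 1. Together the 145 genes held 0.752% of counts in root replicate 1, 7.66% in replicate 2 and 5.47% in replicate 3. In stem, whose levels were not used to pick them, they took 5.3, 3.35 and 0.833% in replicates 1, 2 and 3. Their share in shoot apex was 0.149 to 0.197%. The median level of the 145 genes did not follow the share in stem, at 1.55, 1.92 and 2.91 CPM in replicates 1, 2 and 3. In root it was 3.76, 31.4 and 30.2 CPM. One of them, E3N88_24217, alone took 1.95, 1.32 and 0.288% of the stem counts, so the stem share does not describe the group as a whole. Library totals were lower where the share was high. They were 3777165 and 5468010 in root replicates 2 and 3 and 5445218 and 6655105 in stem replicates 1 and 2. Root replicate 1 held 10015399 and stem replicate 3 held 9721732. The part of depth, harvest or handling in this was not tested.

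The 4 IDs shown in full were taken by rule. In each direction the first is the gene with the highest mean CPM in the higher organ among calls of at least 8-fold that were made again without any 1 of the 6 libraries. The second has the largest fitted fold among calls with at least 10 reads in each of the 6 libraries, or the next largest where that gene was already the first.

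In root, the most abundant was E3N88_24217, at 2741 CPM in root replicate 1, 35389 in replicate 2 and 22932 in replicate 3. In shoot apex it was at 484.3, 331.6 and 332 CPM. The organs did not overlap, but the lowest root library was only 5.66 times the highest shoot apex library, because root replicate 1 was far below the others. The log2 fold change, root minus shoot apex, was 5.73 ± 0.946 (SE, edgeR adjusted p = 8.69e-05), and over 17 alternative fits it was 5.07 to 6.25 with an adjusted p of 1.43e-14 to 0.00398. In stem E3N88_24217 was at 23573, 15286 and 2807 CPM, so that stem replicate 3 was low as root replicate 1 was. It was at 3288 ± 1844 CPM in leaf (SD, n = 3) and 3945 ± 1477 in flower, both above every shoot apex library.

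E3N88_19944 had the largest well-read difference toward root, at 24.9, 939.9 and 782.8 CPM in root replicates 1, 2 and 3 and 1.21, 1.12 and 1.02 CPM in shoot apex. Each shoot apex library held 13 to 17 reads of it, against 2841 and 3685 in root replicates 2 and 3, and whether these few reads were expressed there or carried over from other libraries was not tested. The log2 fold change was 9 ± 1.51 (SE, edgeR adjusted p = 0.000101), and the range over the alternatives was 8.47 to 9.57 with an adjusted p of 4.3e-14 to 0.00105. Root replicate 1 stood 20.5 times above the highest shoot apex library, a small part of the ratio of means, 520. In stem it was at 629.7, 405.4 and 24.5 CPM, again low in replicate 3. Both IDs taken by rule in root thus belong to the genes that were low in root replicate 1.

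In shoot apex, E3N88_06452 was the most abundant by the rule, at 376.5, 441.5 and 473.9 CPM in replicates 1, 2 and 3. In root it was at 3.54, 3.64 and 4.04 CPM, with 11 to 32 reads per library, so that all root libraries were low and close together. The log2 fold change was -6.85 ± 0.399 (SE, edgeR adjusted p = 4.11e-09), and the range over the alternatives was -7.29 to -6.68 with an adjusted p of 1.33e-71 to 2.22e-05. The lowest shoot apex library was 93.3 times the highest root library. E3N88_06452 was as high in stem, at 463.4, 436.6 and 355.8 CPM, which overlaps shoot apex, and lower in leaf (181.6 ± 98.3 CPM; SD, n = 3) and flower (126.8 ± 19 CPM). Every stem, leaf and flower library was above every root library.

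E3N88_40614 had the largest well-read difference toward shoot apex after that gene. It was at 83.4, 115 and 128.1 CPM in shoot apex replicates 1, 2 and 3, and at 2.32, 4.3 and 2.34 CPM in root. The log2 fold change was -5.27 ± 0.553 (SE, edgeR adjusted p = 1.22e-06), and the range over the alternatives was -5.71 to -5.07 with an adjusted p of 1.7e-22 to 4.69e-05. Flower, at 66.5 ± 2.28 CPM (SD, n = 3), and stem, at 57.1 ± 13.5, followed shoot apex and overlapped each other. Leaf was uneven, at 4.24, 26.8 and 9.48 CPM, and its lowest library was just below the highest of root.

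**Figure D5:**
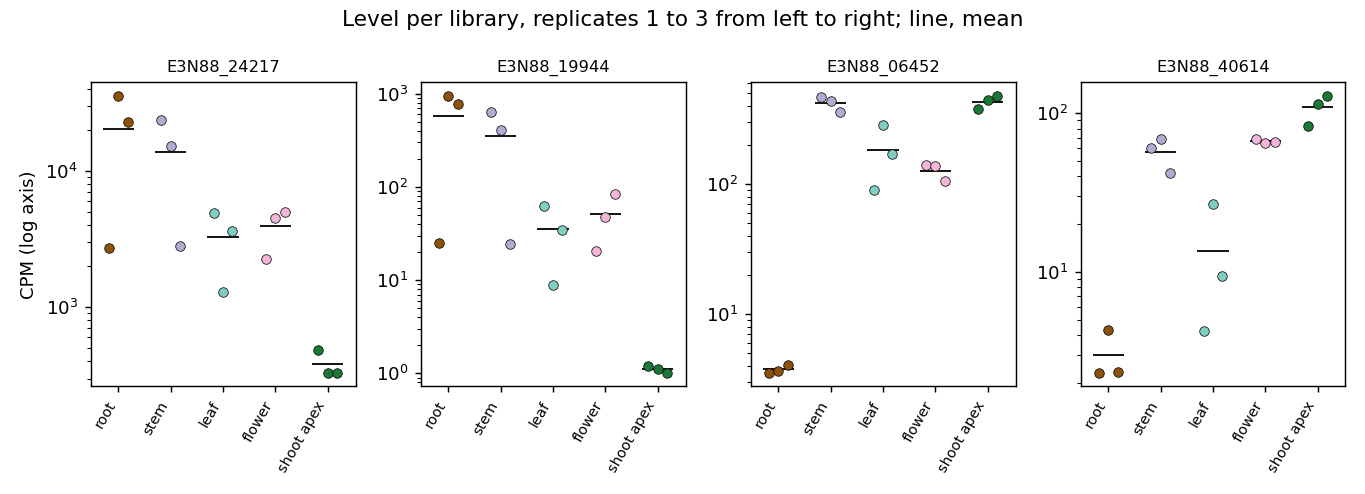
Points show the CPM of each of the 15 libraries (log axis, replicates 1 to 3 from left to right) for the 4 IDs, and lines show the mean of 3 libraries. In E3N88_24217 and E3N88_19944, root replicate 1 and stem replicate 3 lie at least 5 times below the other libraries of their organ. In E3N88_06452 and E3N88_40614 the root libraries lie together at 2.32 to 4.3 CPM.

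Genes that differed by less than 2-fold were also counted. For 4454 genes (16.5% of those tested), the 95% interval of the fold lay within 2-fold in either direction, which bounds any difference between the organs. Of these, 724 had an adjusted p under 0.05 and thus a small difference, and 3730 did not. The 4454 genes had a median of 42.7 CPM. Another 8073 uncalled genes had a wider interval and a median of 7.45 CPM, and for these neither a difference of 2-fold nor its absence could be shown at this depth and spread. Among them were 1419 genes whose estimate reached 2-fold with an adjusted p of at least 0.05.

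Genes with consecutive ID numbers tended to differ in the same direction. Locus tags are numbered in sequence, but no annotation was used here to show which IDs are neighbours on a chromosome. Of 5832 pairs of consecutive numbers in which both genes were called, 3505 (60.1%) had the same direction. The share was 55.5% at a distance of 2 numbers, 51.6% at 10 and 50.8% at 100. Across genes, the log2 fold changes of consecutive IDs had a Pearson's r of 0.174 (19652 pairs), which was 0.0159 at a distance of 10, and genes are not independent replicates.
By fitted fold, runs of large differences were found more often in root. The 8-fold sets by fit had 2476 root-higher and 2579 shoot apex-higher genes. In 659 and 1235 of these the lower organ held 3 reads or fewer. Taken at 8-fold or more by fit, 61 runs of at least 3 consecutive IDs were all root-higher, with 224 IDs, and 36 runs were all shoot apex-higher, with 117 IDs. Of runs of at least 5, there were 10 with 58 IDs in root and 1 with 7 IDs in shoot apex. At 2-fold the numbers of such runs were closer, with 33 in root and 26 in shoot apex, and the longest had 9 IDs in either direction. The number of runs that would arise by chance was not tested. Whether the IDs of a run are alike in sequence was not checked. How reads that match several places were counted is not given either, so counts within a run may be uncertain.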

How the data were processed

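The authors deposited raw read counts per gene ID for 15 libraries of total RNA. Per the submitters' processing notes, HISAT2 was the aligner. Its version, the genome build, annotation, strand setting, counting program and use of reads that match several places were not given in the sources used here. No genome, annotation or sequence was used.

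Genes were kept by filterByExpr on the organs, which left 27055 IDs with 99.9% of the counts of the 6 libraries. In edgeR 4.0.16 (R 4.3.3), libraries were scaled by TMM and 1 term per organ was fitted to all 15 libraries, followed by glmQLFit, glmQLFTest and Benjamini-Hochberg adjustment over all genes tested. The standard error is the size of the log2 fold change over the square root of F. Scripts were tested on simulated data. Alternatives were RLE factors, plain totals, DESeq2 1.42.0, limma 3.58.1 (voom with quality weights), glmTreat, other filters, the 6 libraries alone, replicate blocks and leaving out each library. The comparison, the rules and the lists were chosen with earlier results of these data known. Fits and ratios on thinned counts or with a common limit, and the counts of single uneven libraries, were added after the data were seen. No replicate pair was a duplicate: the chi-square per gene was 2.07 to 48.1. Gene lists by name could not be matched. Library totals after TMM scaling set the precision: 3 reads over 3 libraries equal 0.179 CPM in root and 0.0717 in shoot apex. The 4 named IDs follow the rule stated with them.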

Additional observations from a re-analysis of the deposited data

How the results depend on the processing

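Of 234 values of the main counts and differences under an alternative, 227 stayed within 1.5 times or kept their direction, 7 moved further and 0 reversed. Each count was scored against its own main value, so a change in which organ had more calls was not scored. Calls ranged from 14137 to 14656 without 1 library and from 10642 (glmTreat at 2-fold) to 15750 (voom with quality weights) otherwise. Root-higher calls ranged from 6155 to 6359 and from 4656 to 6782, and shoot apex-higher calls from 7838 to 8501 and from 5918 to 10644. At 8-fold by fit, the ranges without 1 library were 2459 to 2676 in root and 2531 to 3287 in shoot apex, the latter without root replicate 1. The organ with more calls at 8-fold by fit changed with the setting. Root was ahead with RLE factors (2582 against 2399), DESeq2 (2554 against 2431) and the 6 libraries alone (2331 against 2072), among others. Shoot apex was ahead with plain totals (3389 against 2106) and voom with quality weights (2871 against 2381), among others. With DESeq2, 99.1% of root-higher and 92.6% of shoot apex-higher calls were shared, and 0 genes were called in the opposite direction. IDs read in 1 organ fell to 139 in root and 198 in shoot apex at 10 CPM, and without 1 library ranged from 381 to 522 in root and from 603 to 1222 in shoot apex. By level, the values that moved were 25 and 322 calls under 1 CPM with the 6 libraries alone, and 591 and 280 at 100 to 1000 CPM with plain totals. No pairing by replicate number was detected: deviations of same-numbered root and shoot apex libraries correlated at -0.026 to 0.02. Such values cannot show whether same-numbered libraries came from the same plant or batch, because organs of a plant need not deviate alike. With the replicate block, calls were 14313 in 15 libraries and 13151 in 6, against 13547 in 6 without it. Root's smaller and uneven depth limits what can be called absent there.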
